A study of Rattus norvegicus with 2 samples.

Results

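Ribosomal protein and translation factor transcripts were followed in heart RNA from 17-week-old male rats of the Dahl salt-sensitive strain, which develops hypertension when fed salt. One array carried RNA of a rat heart on a high-salt diet, labelled as chronic heart failure, and 1 array carried RNA from the low-salt diet. No other treatment or genetic change is named for either group. The labels give neither the chamber of the heart nor whether an RNA came from 1 rat or several. Members were probe sets with a single annotated gene symbol of the form Rpl, Rps, Eef or Eif followed by the characters of the naming scheme, without the Rps6k kinases and without control probe sets. This gave 107 of 8740 probe sets and 70 of the 4736 gene symbols that had a probe set of their own: 43 probe sets of large subunit proteins (30 genes), 21 of small subunit proteins (14 genes), 10 of elongation factors (5 genes) and 33 of initiation factors (21 genes). Of the 70 symbols, 2 are annotated as pseudogenes in RefSeq (Rps2-ps1 and Rps4x-ps9).

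Cytoplasmic ribosomes are built from a large and a small subunit, and most of their proteins come from transcripts that are abundant in every cell. Initiation factors bring the small subunit to the start codon, and elongation factors deliver aminoacyl-tRNA and move the ribosome along the mRNA. Many mRNAs of this machinery begin with a run of pyrimidines, the terminal oligopyrimidine tract, through which growth signals set their translation together. Striated muscle also uses paralogs of general components: Rpl3l takes the place of Rpl3 in adult heart and skeletal muscle ribosomes, and Eef1a2 that of Eef1a1.

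The starts of 10 member genes are shown because these pyrimidine runs are a sequence feature that the naming rule did not use, and because Rpl3, Rpl3l, Eef1a1 and Eef1a2 carry the differences described below. Each line gives 15 bases before and 15 bases from the annotated RefSeq start (build GRCr8), 5′ to 3′. Capitals mark a run of C or T with at least 5 bases inside the 10 bases centred on that start.
Rpl19, chr10:83519049-83519078, plus strand: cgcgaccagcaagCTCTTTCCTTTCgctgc
Rpl22, chr5:168117946-168117975, plus strand: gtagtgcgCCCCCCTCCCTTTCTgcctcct
Rpl39, chrX:121195882-121195911, minus strand: tcttctaatcgcgTTCTTCCggcctgtcct
Rplp0, chr12:46718376-46718405, minus strand: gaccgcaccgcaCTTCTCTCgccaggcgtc
Rps10, chr20:5700730-5700759, minus strand: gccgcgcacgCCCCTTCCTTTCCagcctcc
Rps15, chr7:10068101-10068130, minus strand: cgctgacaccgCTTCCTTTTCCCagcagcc
Eef1a1, chr8:88225055-88225084, minus strand: tcgccttggacgTTCTTTTTCgcaacgggt
Eef1a2, chr3:188652619-188652648, minus strand: cgctcgggtacaTCTCTgcagctgcgtcct
Rpl3, chr7:113507976-113508005, minus strand: ccagcgcctgctcgaTCTCTatcggcggcg
Rpl3l, chr10:14258431-14258460, plus strand: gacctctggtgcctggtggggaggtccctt

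Annotated starts were held for 61 of the 70 genes. A pyrimidine run at the start was found in 18 of 37 subunit genes (48.6%), in 2 of 5 elongation factor genes and in 2 of 19 initiation factor genes (10.5%). The share over all 27457 genes with a promoter sequence was 16.9%. A wider search, for 6 or more C or T within 25 bases of the start, found 30 of 37 subunit genes (81.1%), 7 of 19 initiation factor genes (36.8%) and 46.2% of all genes. These counts depend on where RefSeq places the start. Among the 33 subunit genes with both a start sequence and a measured ratio, the 16 with a run at the start had a median log2 ratio of 0.23 and the 17 without one a median of 0.10; with the wider search the order turned, at 0.13 for 27 genes and 0.19 for 6.

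The values are intensities on a linear scale, 1 per probe set and array, of which 27.3% on each array were below 0. Taking the size of the values below 0, their 95th percentile of 126.4 served as noise floor. A probe set counted as measured where it reached this floor on at least 1 array. Anything dimmer was set to the floor before high salt was divided by low salt, so such ratios are bounds. Intensities are given throughout as high salt against low salt. Of all 8740 probe sets 1955 were measured, with a median log2 ratio of -0.04. Log2 ratios of different probe sets of 1 gene varied with a pooled SD of 0.22 (231 genes above the floor on both arrays), and of 0.18 among 20 member genes; this error holds no variation between rats. With a single array for each diet no spread between animals can be had, every difference is between these arrays, and no p-value was computed. The 5 hybridisation control probe sets above the floor, which are of bacterial and phage sequence and were added to the sample, had log2 ratios from -0.34 to 0.15 with a median of -0.19. The 3′ over 5′ intensity ratio was 1.16 on the high-salt and 1.10 on the low-salt array for actin, and 1.30 and 1.22 for Gapdh. Heart muscle markers were bright on both arrays: all 15 probe sets of 9 listed genes were above the floor, and their intensities summed to 70483.5 on the high-salt and 72363.9 on the low-salt array. Single markers differed more than the sums: Myh7, the slow myosin, read 4125.1 against 1988.0 and 6372.0 against 5980.7, and Myh6, the fast one, 1706.2 against 3276.7 in its lowest ratio. Of the 15, 1 was at least 1.5-fold higher and 1 lower, and their part in the Rpl3l and Eef1a2 readings was not tested.

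Most of the translation machinery read slightly higher on the high-salt array, by far less than 1.5-fold. The members past 1.5-fold were Rpl3, Rpl39 and Eef1a1, which read higher, and Rpl3l and 1 probe set of Eif4h, which read lower. Rpl3 read 2.66-fold and 3.80-fold higher in its probe sets, and its muscle paralog Rpl3l 1.83-fold and 3.09-fold lower. Eef1a1 was 1.65-fold higher and its muscle paralog Eef1a2 1.30-fold lower, which does not pass 1.5-fold. Rpl39 was 1.51-fold higher and Eif4h at least 1.84-fold lower in one probe set and 1.20-fold lower in another. Of the 107 member probe sets 78 (54 genes) were measured, and 29 lay under the noise floor on both arrays. A ratio above 1 was found for 54 of the 78 (69.2%), against 45.6% of all measured probe sets. Scaled to the hybridisation controls instead, which shifts all probe sets upwards, the shares were 85.9% of the members and 65.7% of all. The median log2 ratio of the members was 0.11 (quartiles -0.03 and 0.25).

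**Figure D1:**
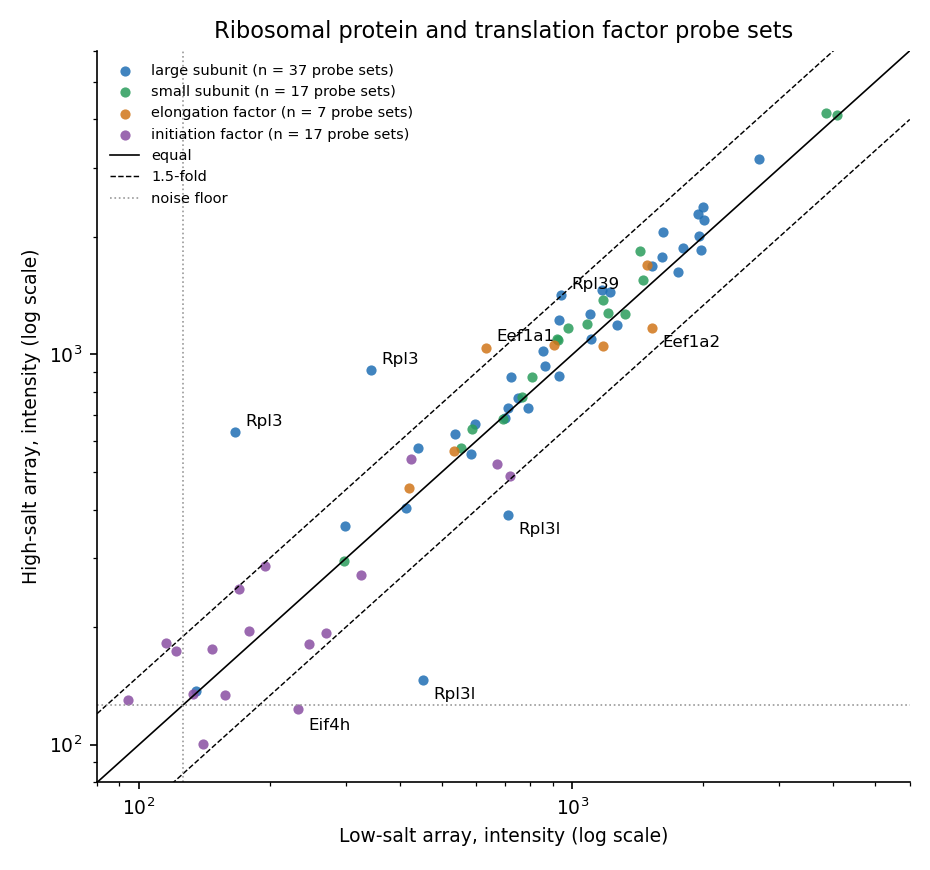
Intensity of the 78 measured member probe sets on the low-salt array (x axis) and the high-salt array (y axis), both on log scales, coloured by class. The solid line marks equal values, the dashed lines 1.5-fold and the dotted lines the noise floor of 126.4. Most points lie between the dashed lines and slightly above the solid one, while Rpl3 stands above and Rpl3l below.

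Few members passed 1.5-fold. There were 4 probe sets at least 1.5-fold higher (5.13% of the measured members), against 8.75% of all measured probe sets, and 3 at least 1.5-fold lower (3.85%), against 9.0%. The higher ones included both Rpl3 probe sets and the lower ones both Rpl3l probe sets. At 2-fold, 2 members were higher (2.56%) and 1 was lower (1.28%), against 3.53% and 1.69% of all probe sets. The shares past 1.5-fold and 2-fold were thus near or under the background, and it is the identity of the few members past them, not their number, that the following values describe. For members near 1.5-fold, such as Rpl39, this identity changed with the scaling of the arrays, as given in the last section.

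Rpl3 is a core protein of the large subunit that lies near the peptidyl transferase centre. Its probe set X62166cds_s_at read 912.9 against 342.9, and rc_AA892367_i_at read 631.4 and 166.3. They derive from different clones and had the same direction. The suffix of each holds an added letter, as does that of the Rpl3l probe set rc_AA891037_g_at. All such types were treated here as ones whose probes may match related genes as well. Cross-hybridisation between Rpl3 and Rpl3l was not tested. The Rpl3 probe sets ranked 29th and 14th from the highest of the 1955 log2 ratios. Rpl3l, the paralog of striated muscle, read 387.4 against 710.2 in rc_AA891037_at, and 146.1 against 451.9 in rc_AA891037_g_at. These probe sets were designed from the same clone, so they are not independent, and they ranked 54th and 4th from the lowest. On the log2 scale the Rpl3 ratios were 1.41 and 1.92 and the Rpl3l ratios -0.87 and -1.63. The smallest gap between a Rpl3 and a Rpl3l probe set was thus 2.29, a 4.88-fold change of their balance, against a spread of 0.75 between the probe sets of Rpl3l, the widest of any member gene. Intensities of different probe sets are not on a common scale, so these values do not say which paralog was the more abundant.

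**Figure D2:**
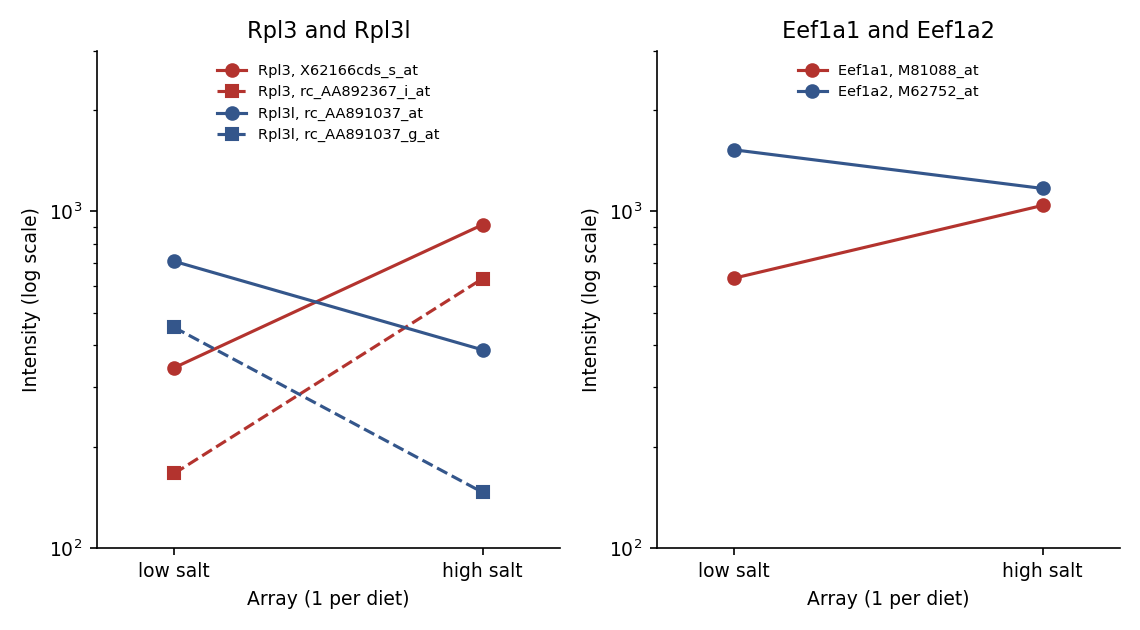
Intensity (log scale) on the low-salt and the high-salt array, 1 array each, for the probe sets of Rpl3 and Rpl3l (left) and of Eef1a1 and Eef1a2 (right); lines join the values of 1 probe set. Rpl3 and Eef1a1 run upwards from low to high salt and Rpl3l and Eef1a2 downwards; only the slopes can be compared between probe sets, not the heights.

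The 150 bases before the annotated starts of Rpl3 and Rpl3l are shown because this pair differed most in opposite directions. Capitals mark TATAAA and CANNTG on either strand, of which no matches overlapped.
Rpl3, chr7:113507991-113508140, minus strand (GRCr8): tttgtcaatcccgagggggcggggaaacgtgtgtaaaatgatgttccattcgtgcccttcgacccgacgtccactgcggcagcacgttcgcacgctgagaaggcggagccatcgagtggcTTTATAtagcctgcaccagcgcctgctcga
Rpl3l, chr10:14258296-14258445, plus strand (GRCr8): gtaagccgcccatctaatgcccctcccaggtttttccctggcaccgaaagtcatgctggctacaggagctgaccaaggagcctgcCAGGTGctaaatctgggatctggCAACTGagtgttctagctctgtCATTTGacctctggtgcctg

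The Rpl3 window held TATAAA on the opposite strand, and the Rpl3l window held CANNTG, the core that basic helix-loop-helix factors bind. TATAAA occurred within 150 bases before the start in 8.84% of all genes with a promoter sequence and CANNTG in 48.4%, so neither is rare. The motifs CATTCC (TEAD), then CTTCCG (ETS), and the MEF2 motif were searched in the same way on both strands and were found in neither window. Over the members, CTTCCG, the core that ETS factors bind, was in 10 of 19 initiation factor genes (52.6%) and 14 of 37 subunit genes (37.8%), against 11.9% of all genes. CATTCC was in 6 of the 61 member genes (9.84%), against 7.93% of all genes. All 6 were among the 27 large subunit genes (22.2%), and no gene of the other classes had it. The MEF2 motif was in none of the 61, against 1.89%. A match is a run of letters and not a shown binding site.

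Of the 43 large subunit probe sets 37 were measured, all above the floor on both arrays; 26 had a ratio above 1 and 11 a ratio below 1, and the log2 ratios had a median of 0.15 (quartiles -0.02 and 0.26). Without Rpl3 and Rpl3l, 33 were measured, 24 above and 9 below 1, with log2 ratios from -0.12 to 0.60. Rpl39, a small protein at the exit tunnel, was the other member past 1.5-fold, narrowly, at 1419.2 against 938.8 (1.51-fold, 1 probe set). Rpl41, the smallest ribosomal protein, read 576.0 against 439.7 (1.31-fold). Rpl13a, which also takes part in silencing inflammatory mRNAs, read 1223.1 against 930.5 and, in a second probe set, 362.6 against 298.7. Rpl35 read 2058.7 against 1617.0 and 877.4 against 721.7, and Rpl22 1464.2 against 1171.3. These genes were thus between 1.21-fold and 1.31-fold higher in each of their probe sets.

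The brightest large subunit transcripts differed by less. Rplp0, the base of the stalk that binds elongation factors, read 3161.0 against 2693.2 (1.17-fold higher), Rpl27a 2392.2 against 2005.4 (1.19-fold) and Rpl19 2286.1 against 1950.3 (1.17-fold). At the other end, Rpl36al1, related to Rpl36a, read 727.1 against 789.2 and Rpl27 1625.8 against 1747.5 in its brighter probe set. Rpl11, which can bind and inhibit the p53 ligase Mdm2, read 1856.9 against 1980.2 and 1187.5 against 1268.4. None of these is settled as lower, since scaled to the hybridisation controls the log2 ratios turned to 0.075 for Rpl36al1, 0.089 for this Rpl27 probe set, and 0.10 and 0.099 for Rpl11. Outside Rpl3l the lowest large subunit log2 ratio was -0.12, so no other protein of this subunit was lower by more than the SD between probe sets.

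Small subunit proteins had the narrowest range. All 17 measured probe sets of 21 were within 1.5-fold, from a log2 ratio of -0.06 to 0.36 with a median of 0.12 (quartiles 0.03 and 0.23), and 14 had a ratio above 1. Rps16 read 1838.4 against 1435.2, 1.28-fold higher. Rps23 read 1092.1 against 919.5, and Rpsa, also known as the laminin receptor precursor, 1552.9 against 1456.3 and 1167.0 against 975.1. The brightest member of all, Rps29, differed by less, at 4159.3 against 3839.5 and 4113.7 against 4069.9. Rps6, the substrate of the S6 kinases, read 1378.6 against 1177.8 and 576.1 against 552.9. The 3 lowest ratios were those of Rps3a (1270.5 against 1321.8), of a Rps15 probe set (682.8 against 690.0) and of Rps27l, the paralog of Rps27 (294.8 against 297.6), which turned to log2 ratios of 0.14, 0.18 and 0.18 when scaled to the hybridisation controls. The other Rps15 probe set read 1085.7 against 925.2.

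Without Rpl3 and Rpl3l, a choice made after the data were seen, 50 probe sets of both subunits were measured and 38 of them (76.0%) had a ratio above 1, with log2 ratios from -0.12 to 0.60 and a median of 0.12. Ribosomal proteins are bright, so the same counts were made over probe sets with an intensity of 500 or more on both arrays. Of the 52 members in this range 39 had a ratio above 1, against 47.2% of all 555 such probe sets. The medians were 0.12 and -0.03. In this bright range 2 members (3.85%) were at least 1.5-fold higher, against 7.75% of all, and none was at least 1.5-fold lower, against 5.41%. The pair Rpl3 and Rpl3l falls outside it, since each dropped under 500 on an array.

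Probe sets annotated to several symbols, mostly a ribosomal protein and its copies or pseudogenes, were not members. They were read on the same arrays and partly derive from the same clones as members, so they are not independent measurements. Of 42 such probe sets with a symbol of this rule 40 were measured and 29 of these had a ratio above 1; the median of their log2 ratios was 0.13 (quartiles -0.01 and 0.21). The one past 1.5-fold was shared by Rps24 and Rps24-ps15, at 2083.7 against 1238.6 (1.68-fold higher). The single-symbol Rps24 probe set was under the noise floor at 24.7 and -6.5. A probe set of 3 Rpl37 copies (Rpl37-ps5, Rpl37l4 and Rpl37l1) read 1147.1 against 852.5 (1.35-fold higher), and one of Rplp2 and its copies 1600.9 against 1732.5. These values cannot be assigned to 1 gene each.

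**Figure D3:**
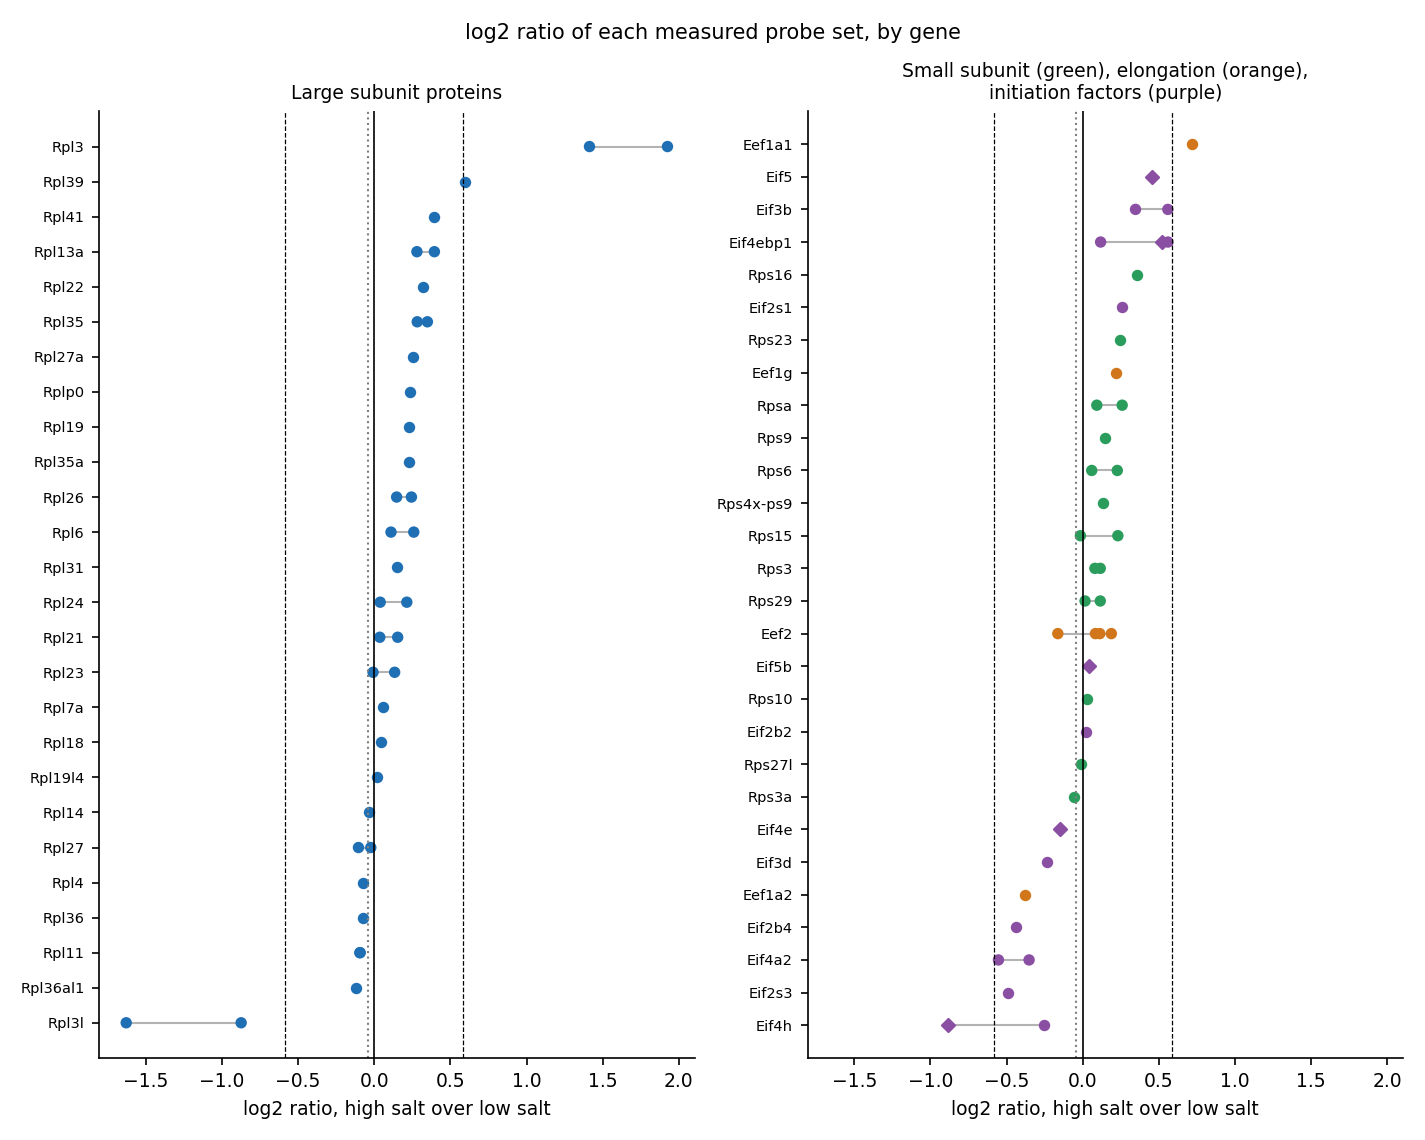
Log2 ratio (high over low salt) for each measured member probe set, by gene, with large subunit proteins on the left and the other classes on the right. Circles are probe sets above the noise floor on both arrays, diamonds are bounds, grey lines join probe sets of 1 gene, dashed lines mark 1.5-fold and the dotted line the median of all probe sets (-0.04). Rpl3 and Rpl3l stand at the opposite ends of the left panel, and initiation factors spread widest in the right panel.

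Among elongation factors the isoforms of the protein that brings aminoacyl-tRNA to the ribosome differed in direction. Eef1a1, the general form, read 1041.2 against 632.8 in M81088_at; a second probe set was under the noise floor on both arrays (6.4 and -3.7). Eef1a2, the form of adult muscle and neurons, read 1169.2 against 1523.1. The log2 ratios of 0.72 and -0.38 each exceed the SD of 0.22 between probe sets of 1 gene as deposited. Scaled to the hybridisation controls, however, Eef1a2 was at -0.19, within that SD. Eef1a1 ranked 127th from the highest and Eef1a2 346th from the lowest of the 1955 log2 ratios. The gap of 1.10 between them is a 2.14-fold change of balance, but each rests on 1 probe set. Eef1g, a subunit of the exchange factor that recharges the same protein, read 1056.3 against 907.9. Eef2, which moves the ribosome along the mRNA, had no settled direction: its 4 probe sets read 1695.2 against 1488.0, 1050.2 against 1176.1, 565.0 against 533.2 and 453.4 against 419.5. Eef2k, the kinase that inhibits Eef2, was under the noise floor in both probe sets, with the brighter at 55.0 and 70.5. Over the 7 measured probe sets of this class the median log2 ratio was 0.11 (quartiles -0.04 and 0.20), 5 were higher and 2 lower.

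Initiation factors went both ways and mostly lay near or under the noise floor. Of 33 probe sets 17 were measured, 12 of them on both arrays, with intensities from 94.4 to 716.0; 9 had a ratio above 1 and 8 a ratio below 1. The median log2 ratio was 0.02 with quartiles of -0.35 and 0.35, and it was -0.11 over the 12 above the floor on both arrays, so the class has no settled direction. Around the mRNA cap, the higher member was Eif4ebp1, the inhibitor that holds Eif4e until it is phosphorylated. Its probe sets read 251.2 against 170.4 (1.47-fold higher), 195.1 against 179.8 (1.09-fold) and 181.8 against 115.3 (at least 1.44-fold). Eif4e itself, the cap-binding protein, read 100.4 against 140.3, at least 1.11-fold lower.

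Helicase components read lower. Eif4a2, an RNA helicase of the cap complex, read 488.0 against 716.0 in one probe set and 523.5 against 668.1 in the other, 1.47-fold and 1.28-fold lower. Both are again of types treated here as ones whose probes may match related genes. Eif4h, which stimulates this helicase, read 123.2 against 233.0 (at least 1.84-fold lower) and 272.8 against 326.0 (1.20-fold lower), while another probe set was dim at 37.1 and 41.8. Scaled to the hybridisation controls, the log2 ratios were -0.36 and -0.16 for Eif4a2 and -0.73 and -0.06 for Eif4h, in the same order. The values of -0.16 and -0.06 lie within the SD of 0.22 between probe sets of 1 gene.

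In the complex that loads the initiator tRNA the subunits differed. Eif2s1, the alpha subunit whose phosphorylation slows initiation, read 176.2 against 147.2, and the gamma subunit Eif2s3 192.9 against 270.5 (1.40-fold lower). Of its exchange factor, Eif2b4 read 181.5 against 246.1 and Eif2b2 135.2 against 133.1, whereas Eif2b1, Eif2b3 and Eif2b5 stayed under the noise floor. The kinases of the alpha subunit were also under it, with Eif2ak1 at 65.7 and 65.6, Eif2ak2 at 61.8 and 29.0 and Eif2ak3 at 81.4 and 88.1 in their brighter probe sets. Their direction cannot be read.

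Scaffold and joining factors completed the class. Eif3b, a scaffold subunit of the largest initiation factor, read 539.2 against 424.0 and 287.3 against 195.0 (1.27-fold and 1.47-fold higher), and Eif3d 134.1 against 158.0. Eif5, which triggers GTP hydrolysis at the start codon, read 173.7 against 122.0 (at least 1.37-fold higher), and its other probe set was dim at 16.6 and 37.6. Probe sets shared by Eif5 and Eif5-ps1 read 249.4 against 174.7 and 285.7 against 227.1. Eif5b, which joins the subunits, read 130.4 against 94.4, at least 1.03-fold higher.

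The members that could not be measured were counted by class. No probe set reached the floor for 16 of the 70 genes: 4 of the large subunit (Rpl5, Rpl17, Rpl30 and Rplp1l3), 2 of the small subunit (Rps24 and Rps2-ps1), Eef2k, and 9 initiation factor genes (Eif2ak1, Eif2ak2, Eif2ak3, Eif2b1, Eif2b3, Eif2b5, Eif2d, Eif3m and Eif4e2). Some of these transcripts were bright in a probe set shared with copies, such as Rpl5 with Rpl5l1 at 1465.1 against 1377.4. A dim value therefore describes the probe set and not the gene. Of 21 genes with several measured probe sets, 18 had the same direction in all of them, and Eef2, Rpl23 and Rps15 did not.

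Other genes tied to translation were read from lists. Of 9 probe sets for terminal oligopyrimidine or ribosome-associated genes 5 were measured, and all 5 had a ratio above 1, with a median log2 ratio of 0.27. Naca, a chaperone at the ribosome, read 734.3 against 635.1, Rack1, a scaffold on the small subunit, 723.9 against 697.6, Gas5, a non-coding host gene with a pyrimidine tract, 198.5 against 138.7, and Hnrnpa1 165.4 against 136.8. The one past 1.5-fold was Vim, which encodes vimentin and is also a fibroblast marker, at 975.5 against 564.8. Growth signalling genes had no member past 1.5-fold in 5 measured probe sets of 22: Akt1, a kinase of insulin signalling, differed between its probe sets, at 511.8 against 468.2 and 333.2 against 375.5. Mtor read 172.1 against 165.7, its activator Rheb 381.3 against 374.5 and 364.6 against 336.9, and the S6 kinase Rps6kb1 was under the floor. In ribosome biogenesis 2 of 19 probe sets were measured, with Ncl, which encodes nucleolin, at 194.9 against 168.9 and Polr1d at 210.3 against 200.5. Myc was under the floor in both its probe sets. Of 5 tRNA synthetase probe sets Kars1 alone was measured, at 139.3 against 149.1.

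Mitochondrial ribosome and translation genes went the other way. With 9 of 19 probe sets measured, 8 read lower, and the median log2 ratio of the 9 was -0.42. Only 5 of them were above the floor on both arrays, and these 5 all read lower. Mrpl23, Mrpl40 and Mrps31 reached the floor on the low-salt array only and Mrps6 on the high-salt array only, so their ratios are bounds. Mrps31 read 122.2 against 201.3 (at least 1.59-fold lower), Mrpl45 142.1 against 218.3 (1.54-fold lower) and Tufm, the mitochondrial elongation factor, 699.9 against 937.8, while Mrps6 read 178.6 against 97.7. Respiratory chain and ATP synthase genes had a median of -0.29 over 82 measured probe sets, with 10 above 1, and proteasome genes a median of -0.20 over 39, with 8 above 1, which is about the median of the hybridisation controls (-0.19). The difference between these sets and the cytoplasmic ribosomal proteins was not tested.

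**Figure D4:**
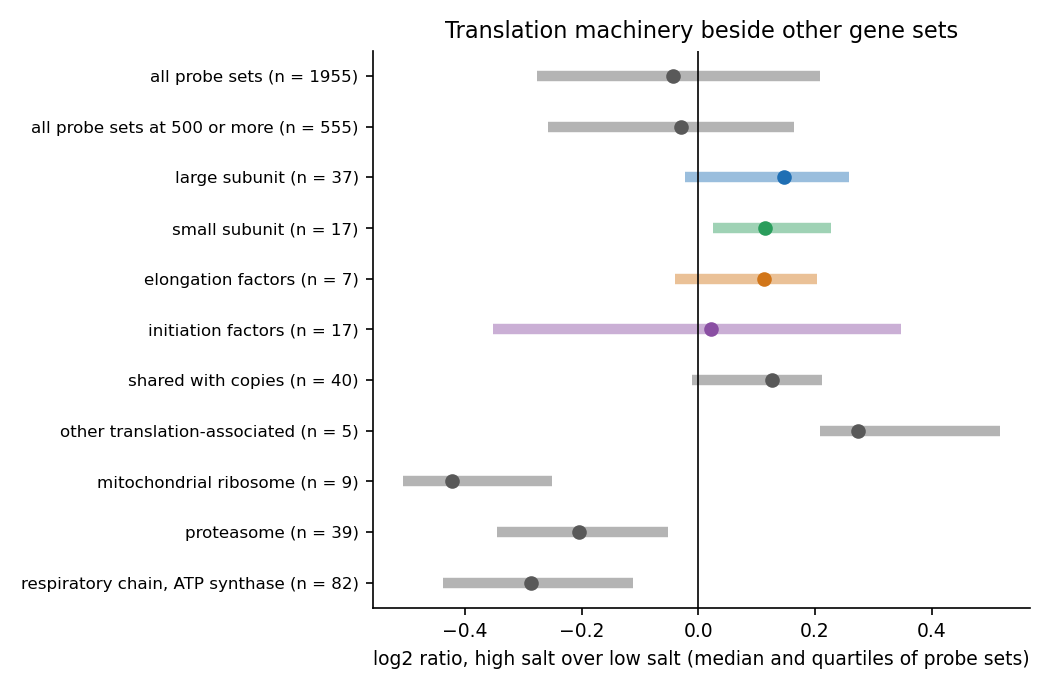
Median (point) and quartiles (bar) of the log2 ratio (high over low salt) over measured probe sets, for all probe sets, the 4 member classes, ribosomal probe sets shared with copies, and other gene sets. The subunit and elongation factor medians lie between 0.11 and 0.15, to the right of 0, and the mitochondrial ribosome, proteasome and respiratory chain medians lie to the left of it.

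Some markers of other cells also differed between the arrays. The sums given here run over all listed probe sets, with values under the floor or below 0 included. In a whole tissue, fewer cells of a type and less RNA per cell cannot be told apart. Red cell markers summed to 8034.4 on the high-salt and 3242.2 on the low-salt array over 6 probe sets, and 3 of the 4 measured were at least 1.5-fold higher. Most of these sums came from Hbb, at 6982.3 against 2910.5. Alas2 (698.0 against 104.5) and a Slc4a1 probe set (264.6 against 119.8) reached the floor on the high-salt array only. Another Slc4a1 probe set, above the floor on both arrays, did not read higher, at 168.3 against 174.8. Gata1 of red cell precursors was below 0 on both arrays. Of 22 fibroblast probe sets 15 were measured, 8 with a ratio above 1 and 7 with a ratio below 1, and the sums were 7656.7 and 6436.8. Of the 15, 4 were at least 1.5-fold higher and none was at least 1.5-fold lower. Col3a1 and Dcn read lower in each of their probe sets, and Ddr2 and Thy1 were under the noise floor. Leukocyte markers summed to 1487.0 and 2252.3 over 15 probe sets, of which 4 were measured. The 2 at least 1.5-fold lower were both of Cd74, at 191.6 against 516.0 and 507.3 against 1144.4. The 1 at least 1.5-fold higher was Lyz2, at 458.6 against 130.4, and Ptprc and Itgam were under the floor. The lower leukocyte sum thus came from Cd74 and does not describe the list as a whole. Smooth muscle markers summed to 3503.2 and 2490.2 over 10 probe sets, of which 3 were measured and none was past 1.5-fold. Most of these sums came from Des, which heart muscle also expresses, and Myh11, Cnn1 and Tagln were under the floor. Of 5 endothelial probe sets 1 was measured, Flt1 at 121.3 against 127.9, and Kdr and Vwf were under the floor. The endothelial sums of 246.7 and 218.7 hold mostly values under the floor, such as a Vwf probe set at -50.0 and -43.8, and give no direction. The part of these cells in the higher readings of ribosomal proteins, Rpl3 and Eef1a1 was not tested.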

How the data were processed

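The authors deposited intensities on a linear scale, 1 per probe set and array, and the software behind them is not given in the sources used here. Biotin-labelled cRNA was hybridised to 1-colour arrays, per the labels' protocols. Means trimmed by 2% were within 0.0986% of each other, and values were used as deposited. All columns were matched to a sample, with 1 array per group. Gene symbols came from GEO's 2016 annotation of the platform (7006 with 1 symbol, 308 with several, 1426 with none; 59 controls left out); 68 of 70 member symbols matched RefSeq by gene ID. Log2 ratios of high over low salt were taken after raising values to the noise floor of 126.4. Named genes were all measured elongation factors, the 3 brightest, highest and lowest of each other class, members past 1.5-fold and a fixed list of factors; the others were chosen after their values were seen. Members, lists and settings were chosen with earlier results of these data known. Alternatives were scaling by quantile, by loess with a span of 0.4 or by the median, other floors, and 1 value per gene. Another left out the probe set types treated as able to share sequence, which are all those with an added letter in the suffix. The ratio and scaling steps were tested on simulated arrays. Changes were planted there only in probe sets far above the noise floor, as many up as down, with no offset between the arrays. The test thus does not cover ratios near the floor or the removal of an offset. Promoter sequences are from RefSeq (GRCr8). Python 3.11.15, numpy 2.4.6, pandas 2.3.3, statsmodels 0.14.6 and matplotlib 3.10.9 were used.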

Additional observations from a re-analysis of the deposited data

How the results depend on the processing

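No paired analysis was possible because each diet had 1 array and the labels carry no replicate numbers. The medians of all members, large subunit, small subunit and elongation factors stayed above 0 under every alternative run. Ratios of single probe sets were followed only under the alternatives of scaling, including that to the hybridisation controls, and of the floor. There Rpl3 log2 ratios ran from 1.32 to 2.12 and those of Rpl3l from -1.63 to -0.68. Those of Eef1a1 ran from 0.69 to 0.91 and those of Eef1a2 from -0.41 to -0.19. Which members passed 1.5-fold changed with scaling. By quantile, Rpl39 fell short of it (0.54), and a probe set each of Eif4ebp1 (0.59) and Eif4a2 (-0.59) passed it. By loess and by the median, Rpl39 stayed past it, joined by a probe set each of Eif4ebp1 (0.63 and 0.61) and Eif3b (0.64 and 0.61). Rpl3, Rpl3l, Eef1a1 and the Eif4h probe set stayed past it under these scalings. The median of initiation factors turned below 0 at 2 times the noise floor (-0.18), above the floor on both arrays (-0.11), and with the brightest probe set or the median of probe sets per gene (-0.064 each). With the floor at the 40th percentile of all values (10.9), 101 members and 5707 of all probe sets were measured. The member counts past 1.5-fold were then 13 higher and 5 lower, and past 2-fold 5 higher and 3 lower. The shares of all probe sets past these folds were counted only as deposited. The member counts past them under any alternative therefore have no background beside them and do not describe the members alone. At 2 times the noise floor 0 were at least 2-fold lower. With the brightest probe set of each gene, 1 gene was past 1.5-fold lower, 1 past 2-fold higher and 0 past 2-fold lower, and with the median of probe sets 1 was past 1.5-fold lower and 1 past 2-fold higher. Without the types that can share sequence, which takes out Rpl3 and the Rpl3l probe set with the lowest ratio, 29 of 46 members had a ratio above 1, 2 were at least 1.5-fold higher, and 0 were past 2-fold in either direction. Chosen after seeing the data, adding the probe sets of several symbols gave 83 of 118 with a ratio above 1. Scaling to the hybridisation controls, also chosen then, moved the medians to 0.31 for all members, 0.34 for large subunit, 0.31 for small subunit, 0.31 for elongation and 0.22 for initiation factors. Of 78 members 9 were then at least 1.5-fold higher, and 85.9% were above 1 (65.7% of all probe sets). This scaling moved the median of all probe sets to 0.13, so the members were 0.18 above it, against 0.16 as deposited and 0.12 to 0.19 under the other alternatives. Where an alternative took 1 value per gene, or left out or added probe sets, only the members were treated so. The median of all probe sets was then the one as deposited. Values near the noise floor, mostly those of initiation factors, limit what these arrays can show.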
